A study of Mus musculus with 4 samples.

Results

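The genes described here are the FGF ligands of the apical ectodermal ridge, Fgf4, Fgf8, Fgf9 and Fgf17, and the ectodermal transcription factor gene Trp63. They are 5 of the 37252 annotated genes, 22350 of them protein-coding, on the autosomes and chromosome X. They were chosen by name, and around each one the peak summits were taken within 1 kb of an annotated start and within 100 kb of the gene body. The data are ATAC-seq peak lists from mouse limbs at stage E11.5. The assay cuts and tags DNA with the Tn5 transposase where chromatin is open, so a called peak marks an accessible place. The study concerns the Maenli long non-coding RNA locus and limb malformations that depend on engrailed-1 (En1).

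Forelimbs and hindlimbs were dissected, made into a single-cell suspension with trypsin, fixed in PFA and then transposed. Mutant embryos carried a stop cassette insertion and the others were wild type, 2 libraries each, with c57bl6.J X 129S6.sv as the strain of all of them. The labels do not give the position and copy number of the cassette or whether a library came from 1 embryo or a pool. The peak names give both wild-type libraries the same leading replicate number and the stop cassette libraries different ones. P-values therefore measure the spread between these libraries, which may be technical. Stop cassette replicates 1 and 2 held 79083 and 107827 peaks, and wild-type replicates 1 and 2 held 51701 and 68471. Read depth is unknown. List length moved with genotype, and its part in each genotype difference below was not tested except by keeping the 51701 highest-scoring peaks of each list, called equal list length below. Each score is the authors' own value for a peak, and it is given as a percentile from 0 (weakest) to 100 (strongest) within its own list.

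The apical ectodermal ridge is a strip of thickened epithelium along the tip of the limb bud. It secretes FGF proteins that keep the underlying mesenchyme growing, and the mesenchyme answers with Fgf10 and with targets such as Spry and Dusp6. Fgf8 is active along the whole ridge and before the others, while Fgf4, Fgf9 and Fgf17 join it in the posterior and distal ridge. Trp63 encodes p63, a p53-family factor without which the ridge and the stratified epidermis do not form. Its upstream promoter drives the TA isoforms and its internal promoter the ΔN isoforms, which are the main ones in embryonic ectoderm. The ridge is a small share of the cells of a whole limb. In such bulk samples, few cells of a type and little accessibility per cell cannot be told apart.

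The sequence before the starts differed among Fgf4, Fgf9 and Trp63, and it is shown because the calls at these starts are read against it. Each stretch is 200 bases of the reference genome (mm9), with CG dinucleotides in capitals, and holds no annotated UTR. The Fgf4 stretch ends 1 base before the only annotated start (chr7:152047091-152047290, plus strand). For Fgf9, which has 4 starts, the stretches are the one around the summit of wild-type replicate 2 upstream of the start at 58691523 (chr14:58690950-58691149, plus strand) and the one before the start at 58695344 (chr14:58695144-58695343, plus strand). For Trp63 they precede the start of the TA isoforms (chr16:25683649-25683848, plus strand) and that of the ΔN isoforms (chr16:25801802-25802001, plus strand).
Fgf4: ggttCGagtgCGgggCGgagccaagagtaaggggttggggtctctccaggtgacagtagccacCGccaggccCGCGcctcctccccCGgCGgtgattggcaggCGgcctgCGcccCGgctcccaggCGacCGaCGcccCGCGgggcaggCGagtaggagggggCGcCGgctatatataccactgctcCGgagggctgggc
Fgf9, first: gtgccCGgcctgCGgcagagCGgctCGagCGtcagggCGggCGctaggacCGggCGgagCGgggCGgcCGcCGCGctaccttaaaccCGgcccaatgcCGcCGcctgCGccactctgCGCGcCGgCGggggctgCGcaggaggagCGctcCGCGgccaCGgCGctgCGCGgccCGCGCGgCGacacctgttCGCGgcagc
Fgf9, second: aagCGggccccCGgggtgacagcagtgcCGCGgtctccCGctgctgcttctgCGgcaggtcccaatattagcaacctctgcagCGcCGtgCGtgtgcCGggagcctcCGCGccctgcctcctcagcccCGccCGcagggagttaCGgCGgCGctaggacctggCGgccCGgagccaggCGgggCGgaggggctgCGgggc
Trp63, TA: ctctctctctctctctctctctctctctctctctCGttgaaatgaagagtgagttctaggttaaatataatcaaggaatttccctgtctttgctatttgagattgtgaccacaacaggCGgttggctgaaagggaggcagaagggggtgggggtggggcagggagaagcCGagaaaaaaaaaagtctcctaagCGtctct
Trp63, ΔN: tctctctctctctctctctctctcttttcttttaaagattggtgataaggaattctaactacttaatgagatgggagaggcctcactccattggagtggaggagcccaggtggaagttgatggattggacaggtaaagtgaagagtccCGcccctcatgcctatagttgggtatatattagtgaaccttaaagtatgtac

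The Fgf4 stretch held 20 CG dinucleotides and the Fgf9 stretches 36 and 22. The Trp63 stretches held 4 before the TA start and 1 before the ΔN start. The GC content was 73% for Fgf4, 80.5% and 75% for Fgf9, and 47.5% and 43.5% for Trp63. The Sp motif GGGCGG, read on both strands, occurred once before Fgf4, 3 and 2 times in the Fgf9 stretches, 0 times before the TA start and once before the ΔN start. Of 74582 merged accessible regions, 20.8% held at least 1 match within 200 bases around their strongest summit. These regions were not limited to starts or matched to the stretches in base composition. A motif match is a description of the letters and not of a bound site.

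At the starts, Fgf9 was the gene with summits in every list. Its highest start percentile was 33.1 and 74.7 in stop cassette replicates 1 and 2, and 38.1 and 80.3 in wild-type replicates 1 and 2. Both replicate 2 lists were high and both replicate 1 lists were low, and the genotypes overlapped. The stop cassette mean was 53.9 ± 29.5 and the wild-type mean 59.2 ± 29.8 (SD, n = 2 per genotype), a difference of -5.27 (exact permutation test, two-sided, p = 0.67, where 0.33 is the smallest possible value). Among all protein-coding genes with a called start, the median of this percentile was between 85.5 and 92.6 in the 4 lists, so the Fgf9 starts lay in the lower part of called starts.

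The Fgf9 start summits fell at 2 places in every list, and stop cassette replicate 2 held a further one, 534 bp downstream of the start at 58693952 at the 29.4 percentile. At the first place, summits lay 542, 451, 542 and 473 bp upstream of the start at 58691523 in stop cassette replicates 1 and 2 and wild-type replicates 1 and 2. At the second they lay 64 to 110 bp upstream of the start at 58695344. At the first place the percentiles were 33.1, 60.2, 38.1 and 62.8, and at the second 15.9, 74.7, 9.58 and 80.3. The second place therefore carried the higher score in both replicate 2 lists and the lower one in both replicate 1 lists. The most 5′ start of Fgf9, at 58689384, had no summit within 1 kb in any list.

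Fgf8, the main ridge FGF, had a start summit in stop cassette replicate 2 alone. It lay 12 bp downstream of the outermost start, in the annotated UTR, with a score of 4.53 at the 30.1 percentile. In the other lists the nearest summit to that start was 3674 bp upstream (stop cassette replicate 1), 6445 bp upstream (wild-type replicate 1) and 5926 bp downstream (wild-type replicate 2). Trp63 also had a start summit in stop cassette replicate 2 alone, 258 bp downstream of the TA start. Its score of 3.72, at the 19.7 percentile, was shared by 4914 peaks of that list. The ΔN start of Trp63, at 25802002, had no summit within 1 kb in any list, and the closest lay 54916 to 54926 bp upstream in the 3 lists that held a summit in the gene.

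Fgf4 and Fgf17 had no start summit in any list, as 34.5% of protein-coding genes did. The nearest summits to the Fgf4 start were 15057 and 15053 bp upstream in the stop cassette lists, 22545 bp upstream in wild-type replicate 1 and 21805 bp downstream in wild-type replicate 2. Those nearest to the Fgf17 start lay 3408, 3446 and 3463 bp upstream in the stop cassette lists and wild-type replicate 1, and 4920 bp upstream in wild-type replicate 2. In all, 1 of 5 genes was called in stop cassette replicate 1 and in each wild-type list, and 3 of 5 in stop cassette replicate 2. The corresponding shares of all protein-coding genes were 61.6% and 64.5% in the stop cassette lists and 59.1% and 61.6% in the wild-type lists. In all 4 lists together, 1 of the 5 was called, against 57.5% of protein-coding genes. A call in stop cassette replicate 2 alone, as for Fgf8 and Trp63, was found for 1.66% of protein-coding genes.

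At equal list length, the start summits of Fgf8 and Trp63 were no longer in the list of stop cassette replicate 2. The Fgf9 start kept its call in 3 lists and lost it in stop cassette replicate 1. The counts were then 0 of 5 genes in stop cassette replicate 1 and 1 of 5 in each other list, against 57.8%, 59.8%, 59.1% and 59.5% of protein-coding genes in the same order of lists. None of the 5 was called in all 4 lists of that length, against 54.8% of protein-coding genes. The absence of a summit says that no peak passed the authors' threshold, not that the start is closed in every cell.

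**Figure D1:**
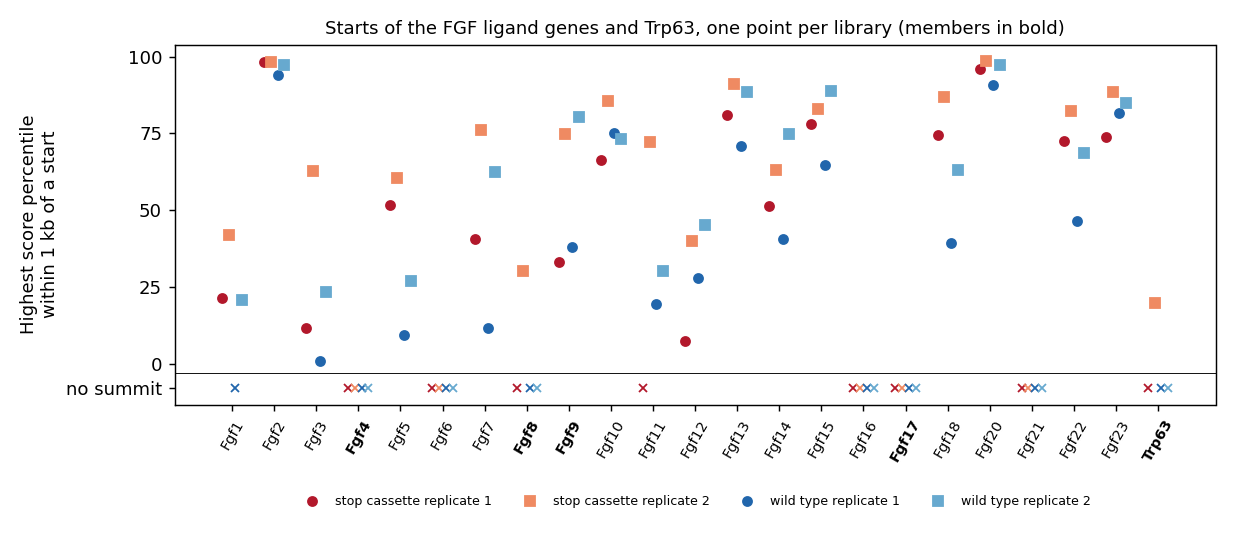
Highest score percentile (vertical axis, 0 to 100 within each list) among summits within 1 kb of a start, for the 22 FGF ligand genes and Trp63, with circles for replicate 1, squares for replicate 2, reds for the stop cassette and blues for wild type. Crosses below the line mark a list with no summit: Fgf4 and Fgf17 have 4 crosses each, Fgf8 and Trp63 have 3 each, and Fgf9 has a point in every list.

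The calls at Fgf4 and Fgf8 were set beside those of other genes of like base composition. A gene was counted as CpG-rich when 1 of its starts had at least 50% GC and an observed to expected CpG ratio of at least 0.6 within 500 bp on either side. Of 10941 CpG-rich protein-coding genes, 93.0% were called in all 4 lists and 1.74% in none. Of 11409 other genes, 23.5% were called in all 4 lists and 65.9% in none. Fgf4 was CpG-rich (67.5% GC, ratio 0.771) and was among the 190 CpG-rich genes called in no list. Fgf8 was CpG-rich at each of its starts (72.7% to 73.5% GC, ratios 0.748 to 0.794) and was among 78 CpG-rich genes called in stop cassette replicate 2 alone. Of the 1347 CpG-rich genes with at least 70% GC, 92.5% were called in all 4 lists and 1.04% in none. Of the 3032 CpG-rich genes with a single start, like Fgf4, 89.1% were called in all 4 lists and 3.07% in none. The part of base composition or of the number of starts in the members' calls was not tested.

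Fgf9 was CpG-rich at 3 of its 4 starts, including both that carried summits in every list (ratios 0.963 and 0.635). Fgf17 (58.1% GC, ratio 0.399) and Trp63 (40.4% GC and ratio 0.196 at the first start, 41.0% and 0.240 at the ΔN start) were not CpG-rich. These shares describe all genes and are not a test of the members.

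Around the genes, the summits within 100 kb fell mostly outside the gene bodies. Fgf4 (ENSMUSG00000050917.4) lies on chromosome 7 from 152047291 to 152051148, between the ligand genes Fgf3 and Fgf15. Its window held 28 and 31 summits in the stop cassette lists and 15 and 21 in the wild-type lists, and 0 of them lay in the gene. Merging the summits gave 20 regions, and all 4 lists held 9 of them. The strongest shared region stood at the start of the neighbour Oraov1, with percentiles of 97.0, 97.3, 86.0 and 93.9. The region at the Fgf15 start had percentiles of 78.1, 82.8, 64.7 and 89.0, and the one at the Fgf3 start had 11.6, 62.9, 0.994 and 23.4. Accessible chromatin in all 4 lists was thus called at both flanking FGF genes and not at Fgf4. At equal list length the Fgf15 start was still called in 4 lists, but the Fgf3 start in 2.

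Away from all annotated starts, 5 regions of the Fgf4 window were held by all 4 lists. The strongest was intergenic, 74.5 kb upstream of the Fgf4 start (151972342 to 151973021), at percentiles of 89.9, 89.6, 76.4 and 79.1. The next were intergenic regions 80.3 kb downstream, beyond the start of Ccnd1 (52.1, 78.5, 71.0 and 69.3), and 45.8 kb downstream (83.5, 92.4, 0.430 and 80.6). In the last of these wild-type replicate 1 was far below the other 3 lists. Both stop cassette lists alone held 4 regions, including one 15.1 kb upstream of Fgf4 at the 36.8 and 82.4 percentiles, whose summits in the 2 lists were 4 bp apart. It kept this pattern at equal list length, whereas the one 76.6 kb upstream had no region at that length.

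Fgf8 (ENSMUSG00000025219.7) lies on chromosome 19 from 45811288 to 45817405, and its known limb enhancers are spread through its gene-poor flank and the introns of the neighbour Fbxw4. Its window held 20 and 24 summits in the stop cassette lists and 10 and 18 in the wild-type lists. The 4 regions held by all lists all lay at starts of other genes, namely Fbxw4, Npm3, Mgea5 and Kcnip2. The highest was at Mgea5, with percentiles of 89.0, 94.1, 91.9 and 93.7. No region away from starts within this window was held by all 4 lists. The window ends at a fixed distance from the Fgf8 body. Any enhancers beyond it, in the introns of Fbxw4 or elsewhere, are not covered by this statement.

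Between the first start of Fgf8 and the start of Fbxw4, no region was in more than 2 lists. A region over the 3′ UTR of Fgf8, 5.93 kb from the first start, was called in stop cassette replicate 2 and wild-type replicate 2 at the 28.6 and 29.5 percentiles. Wild-type replicate 2 alone held regions 16.8 kb and 25.3 kb downstream, each at the 36.9 percentile. An intronic region of Fbxw4, 92.7 kb downstream (45724430 to 45724938), was held by both wild-type lists alone at the 46.6 and 50.7 percentiles, with summits 8 bp apart. The nearest stop cassette summits were 9082 and 2865 bp from this region, and at equal list length it was again held by both wild-type lists alone. On the other side, both stop cassette lists alone held 4 regions, the strongest 47.8 kb upstream at the 89.4 and 74.4 percentiles and 62.3 kb upstream in an intron of Kcnip2 at the 71.0 and 82.4 percentiles. Both of these kept that pattern at equal list length, and the weaker ones had no region at that length.

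Fgf9 (ENSMUSG00000021974.8) lies on chromosome 14 from 58689384 to 58731174 in a sparsely called window. There were 6 and 10 summits in the stop cassette lists and 4 and 7 in the wild-type lists. Its 3 regions held by all lists were the pair at its own starts and the start region of Efha1, at percentiles of 85.1, 86.6, 78.8 and 81.4. None of its 6 regions away from starts was held by all 4 lists. The stop cassette lists alone shared an intronic region of Efha1, 88.2 kb upstream, at the 17.3 and 56.5 percentiles.

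Fgf17 (ENSMUSG00000022101.5) lies on chromosome 14 from 71036012 to 71042075 in a window that 9 protein-coding genes, itself included, reach into. The window held 27 and 27 summits in the stop cassette lists and 19 and 22 in the wild-type lists. It had the most regions held by all 4 lists, 11 of 20, and the strongest of them was at the start of Nudt18 (95.5, 95.1, 92.2 and 96.8). Of the 12 regions away from starts, 5 were held by all lists. The strongest was in the neighbour Epb4.9, 24.1 kb downstream of the Fgf17 start, at percentiles of 79.8, 92.5, 78.2 and 87.3, and its best summits in the 4 lists were within 8 bp. The next were over a UTR of Xpo7, 16.9 kb upstream (66.0, 84.7, 65.2 and 56.5), and in an intron of Xpo7, 71.0 kb upstream. In the Xpo7 intron both stop cassette lists (97.2 and 82.9) were above both wild-type lists (28.5 and 32.4).

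The body of Fgf17 itself held 1 summit, in stop cassette replicate 2 at the 9.20 percentile. Just beyond its 3′ end, a region at a start of Epb4.9 was held by all 4 lists (65.7, 66.2, 40.8 and 45.1). On the upstream side the closest region lay 3.45 kb from the start and was held by 3 lists at the 27.3, 55.4 and 9.01 percentiles. Wild-type replicate 2, which lacked it, shared a region 5.01 kb upstream with stop cassette replicate 2, at the 48.7 and 59.2 percentiles.

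Trp63 (ENSMUSG00000022510.8) lies on chromosome 16 from 25683849 to 25892188, the longest body of the 5 at 208.3 kb, and had the fewest summits. The stop cassette lists held 3 and 6, wild-type replicate 1 held 0 and wild-type replicate 2 held 2. Ranked by number of summits among all protein-coding gene windows, with ties weighted 0.5, these windows stood at the 17.5, 19.4, 5.76 and 14.6 percentiles of their lists. None of its 6 regions was held by all 4 lists, and none lay at the start of another gene.

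A single place in the body of Trp63 recurred between lists. It is intronic, 63.2 kb downstream of the TA start and upstream of the ΔN start (25746826 to 25747336). Its percentiles were 36.8 and 79.4 in the stop cassette lists and 50.7 in wild-type replicate 2, and the 3 summits lay within 10 bp of each other. Wild-type replicate 1, the shortest list, held no summit there. A further region in an intron of the neighbour Leprel1, 284 kb downstream of the TA start, was held by the same 3 lists at the 64.7, 71.1 and 20.7 percentiles.

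**Figure D2:**
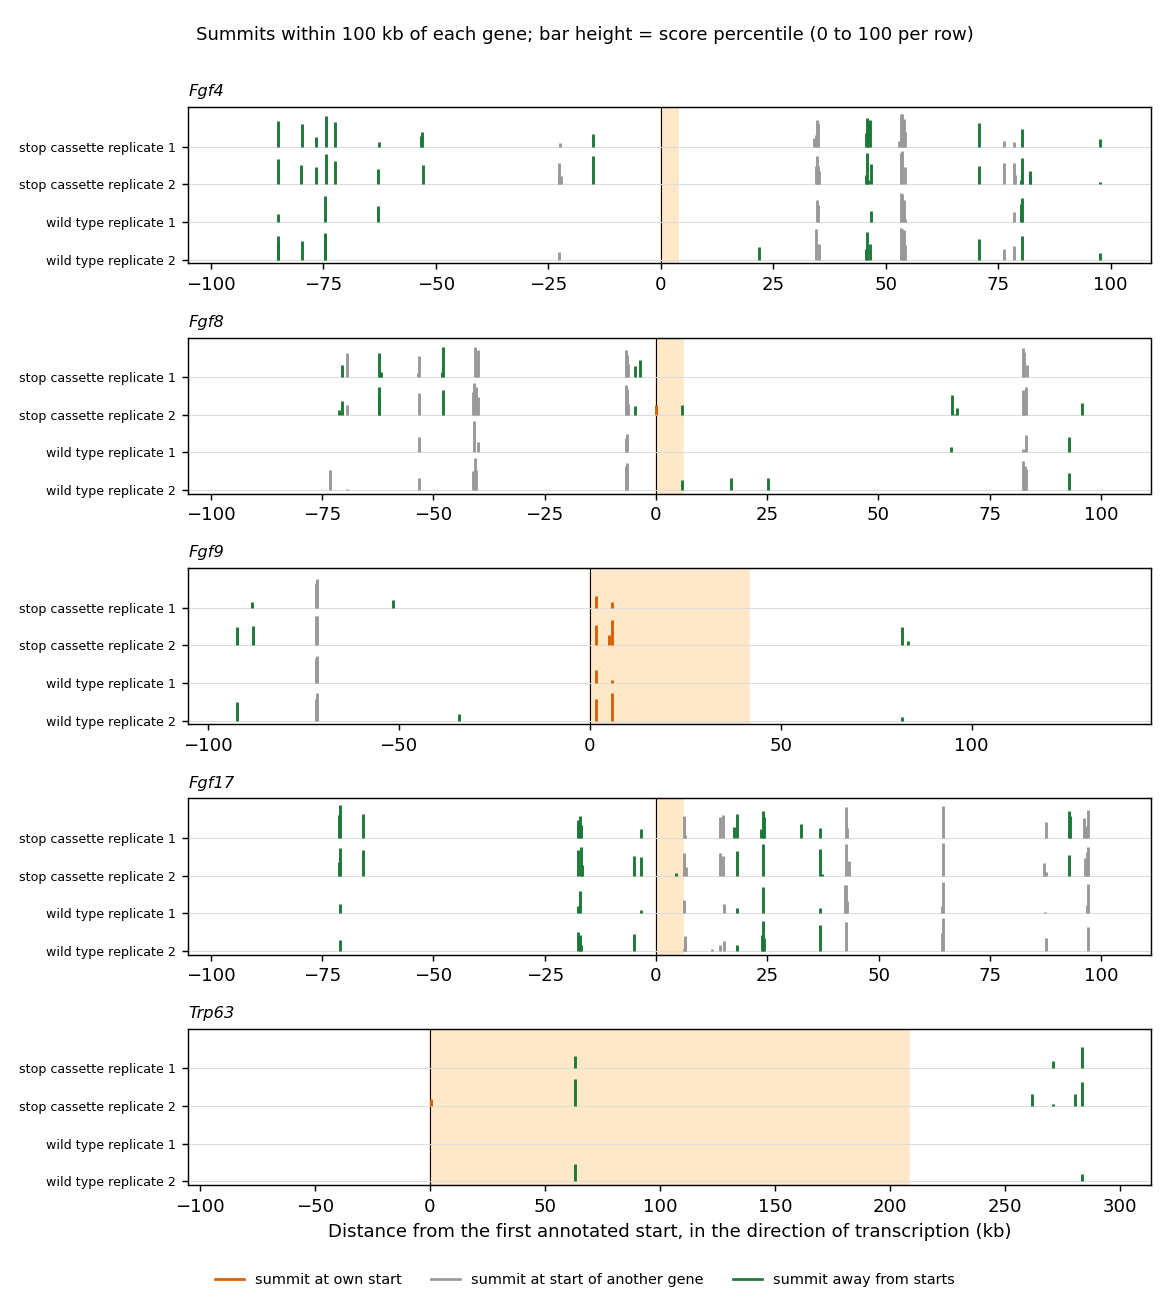
Summits within 100 kb of each gene body, by library (rows), placed by distance in kb from the first annotated start in the direction of transcription, with bar height for the score percentile (0 to 100 in each row) and shading for the gene body. Orange bars are at the gene's own start, grey at the start of another gene and green away from starts. The bars over Fgf9 starts recur in all 4 rows, the bodies of Fgf4 and Fgf17 are nearly or fully empty, and the intronic bar of Trp63 appears in 3 rows.

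Places away from starts are shown by sequence for the 3 windows where a region free of UTRs recurred, in 4 lists for Fgf4 and Fgf17 and in 3 for Trp63. They are 200 bases of mm9 (plus strand) around the strongest summit of the region 74.5 kb upstream of Fgf4 (chr7:151972660-151972859), of the Xpo7 intron region in the Fgf17 window (chr14:71112940-71113139) and of the Trp63 intron region (chr16:25746986-25747185). For the 2 higher-ranked Fgf17 regions, the 200 bases around the strongest summit overlap annotated UTRs and are not printed. Capitals mark matches to any of 7 motifs searched on both strands: the p53-family motif, TCF/LEF (ATCAAAG), AP-2 (GCCNNNGGC), Grainyhead-like (AACCNGTT), Sp (GGGCGG), homeodomain (TAATTA) and AP-1 (TGANTCA). The Sp and AP-2 motifs can overlap.
Fgf4 window: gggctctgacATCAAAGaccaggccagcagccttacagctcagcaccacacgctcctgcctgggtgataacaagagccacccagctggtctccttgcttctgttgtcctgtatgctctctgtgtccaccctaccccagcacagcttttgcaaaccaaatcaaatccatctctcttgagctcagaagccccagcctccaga
Fgf17 window: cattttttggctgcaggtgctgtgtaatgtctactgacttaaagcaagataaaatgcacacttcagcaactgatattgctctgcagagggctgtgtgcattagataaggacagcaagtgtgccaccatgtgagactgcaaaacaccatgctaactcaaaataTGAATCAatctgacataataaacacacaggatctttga
Trp63 intron: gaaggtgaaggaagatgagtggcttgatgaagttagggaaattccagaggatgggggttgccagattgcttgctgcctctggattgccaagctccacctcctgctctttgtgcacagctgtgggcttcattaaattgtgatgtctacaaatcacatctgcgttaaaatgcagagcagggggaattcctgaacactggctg

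The Fgf4 region held 1 TCF/LEF match, a motif found in 2.69% of all 74582 regions. The Fgf17 region held 1 AP-1 match, found in 6.57% of regions. The other motifs searched were each found in 1.42% to 20.8% of regions. The share of regions with a match to any of the 7 was not computed. The Trp63 region held 0 matches to the 7 motifs, which says that these letters are not in this stretch. It held 1 CG dinucleotide, as did the Fgf4 region, and the Fgf17 region held 0. In base composition (55%, 40.5% and 49% GC) these places were unlike the stretches at the starts of Fgf4 and Fgf9.

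Between genotypes, summit counts in the windows were higher in the stop cassette lists. The mean number of summits was 29.5 ± 2.12 against 18 ± 4.24 for Fgf4, 22 ± 2.83 against 14 ± 5.66 for Fgf8, and 27 ± 0 against 20.5 ± 2.12 for Fgf17 (stop cassette against wild type, SD, n = 2 each). It was 4.5 ± 2.12 against 1 ± 1.41 for Trp63 and 8 ± 2.83 against 5.5 ± 2.12 for Fgf9. In the windows of Fgf4, Fgf8, Fgf17 and Trp63 both stop cassette lists were above both wild-type lists, and the Fgf9 windows overlapped. Each of these 4 differences had an exact permutation p = 0.33, the smallest that 2 against 2 libraries allow, and 0.417 after Benjamini-Hochberg adjustment over 5 genes (for Fgf9, 0.67 before and after). The Fgf8 difference was 8 summits, and 4 without wild-type replicate 1, while the Trp63 difference was 3.5, and 2 without stop cassette replicate 2. Of all 22350 protein-coding gene windows, 56.5% also had both stop cassette counts above both wild-type counts, and 0.564% had both below.

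At equal list length the differences shrank to 1 summit for Fgf4, 2 for Fgf8, 0 for Fgf9, 1 for Fgf17 and 1.5 for Trp63. Trp63, with 2 and 2 summits against 0 and 1, was then the single window of the 5 whose genotypes did not overlap, against 14.2% of all windows with the stop cassette above and 10.4% with it below. As a share of its list, the 5 windows together held 0.106% of the summits of stop cassette replicate 1 (95% Wilson interval 0.0858% to 0.131%) and 0.0909% of those of replicate 2 (0.0746% to 0.111%). The wild-type shares were 0.0928% (0.0700% to 0.123%) and 0.102% (0.0809% to 0.129%). The intervals cover counting error only. The group means were 0.0986% ± 0.0108 and 0.0975% ± 0.00664 (SD, n = 2), closer together than the replicates of either group (exact permutation p = 1).

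**Figure D3:**
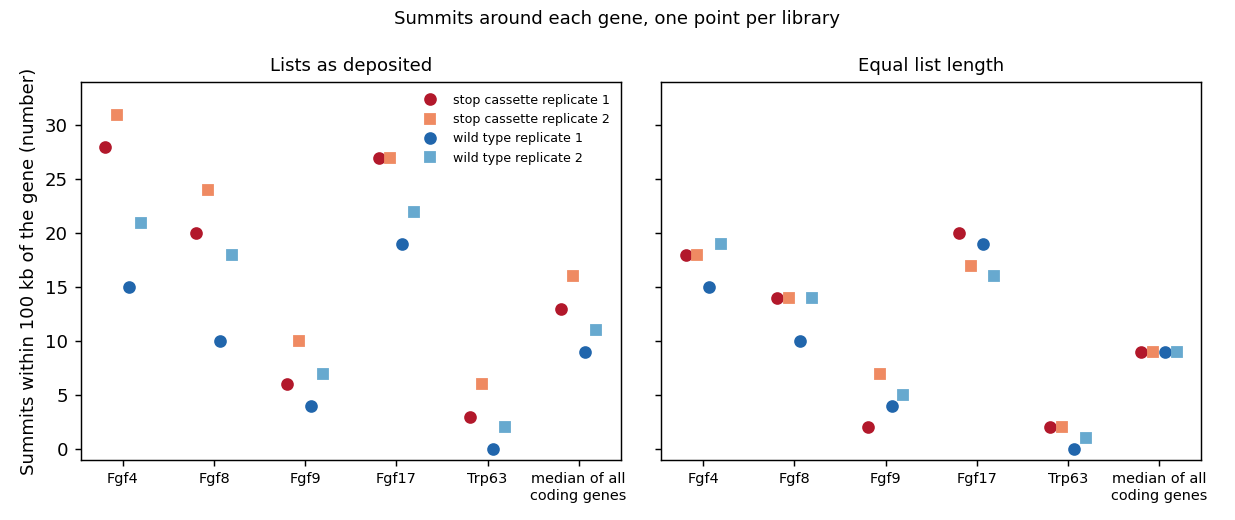
Number of summits within 100 kb of each gene (vertical axis) in the 4 libraries, for the lists as deposited (left) and reduced to equal length (right), beside the median over all protein-coding genes. As deposited, both stop cassette points lie above both wild-type points for Fgf4, Fgf8, Fgf17 and Trp63, and the all-gene medians of 13, 16, 9 and 11 (stop cassette, then wild type) do so too, whereas at equal length the medians are all 9.

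Of the 75 regions in the 5 windows, 27 (36%) were held by all 4 lists, against 32% of all merged regions. The stop cassette lists alone held 12 (16%), against 10% of all regions, and the wild-type lists alone held 1 (1.33%), against 0.314%. At equal list length all 4 lists held 20 of 57 regions, against 38.3% of all regions. The counts were then 9 of 57 (15.8%) for the stop cassette, against 5.21% of all regions, and 1 of 57 (1.75%) for wild type, against 2.23%. Of the 12 stop cassette regions, 4 lay in the Fgf4 window, 4 in that of Fgf8, 2 in that of Fgf17, and 1 each in those of Fgf9 and Trp63. At equal list length the Trp63 one had no region, and another region of that window then had this pattern. All 13 genotype-specific regions lay away from annotated starts, as did 50 of all 75 regions in the windows. The same share over all genotype-specific regions of the genome was not computed. The number for the stop cassette rose to 23 without stop cassette replicate 1 and to 20 without wild-type replicate 2, since a single list then stands for its genotype. The wild-type number rose to 7 without wild-type replicate 1.

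Regions held by all 4 lists also ranked higher on average in the stop cassette lists, but the genotypes overlapped for Fgf4 and Fgf9. Their mean percentile was 70.9 ± 9.62 against 54.0 ± 16.5 over 9 regions of the Fgf4 window, 80.6 ± 1.97 against 67.5 ± 9.13 over 4 of Fgf8, 59.3 ± 20.6 against 58.5 ± 23.1 over 3 of Fgf9, and 74.8 ± 3.52 against 53.3 ± 6.68 over 11 of Fgf17 (stop cassette against wild type, SD, n = 2 each). The differences were 16.9, 13.1, 0.780 and 21.5, with exact permutation p-values of 0.67, 0.33, 1 and 0.33 (0.89, 0.67, 1 and 0.67 after Benjamini-Hochberg adjustment). Without wild-type replicate 1 the Fgf4 difference fell from 16.9 to 4.27. Both stop cassette percentiles exceeded both wild-type ones in 14 of the 27 regions, against 38.9% of all such regions in the genome, and fell below them in 0, against 3.45%. Over all 23864 such regions the same difference was 9.04, and at equal list length it was 0.292. For the member windows at equal length it was 6.84 over 20 regions, with 5 of 20 fully above, against 20.7% of all regions, and 2 fully below, against 18.9%. At equal length the Fgf17 difference, then over 8 regions, was 10.5 (exact permutation p = 0.33), and the Fgf9 difference, over 1 region, turned to -2.40. The Fgf4 difference was then 6.69 over 7 regions, and the Fgf8 difference 2.12 over 4. The Fgf8 genotypes overlapped at that length, with 68.3 and 62.5 in the stop cassette lists against 61.1 and 65.5 in the wild-type lists.

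The remaining genes of the pathway were read through lists chosen for this tissue. Of the 22 FGF ligand genes, 14 were called at a start in all 4 lists (63.6%, against 57.5% of protein-coding genes) and 5 in none. Those called in none were Fgf4 and Fgf17 of the ridge, and Fgf6, Fgf16 and Fgf21. Fgf10, the mesenchymal ligand that signals to the ridge, was called in all 4 lists at percentiles of 66.5, 85.7, 75.1 and 73.2. Fgf2 and Fgf20 had the highest starts of the family, at 94.2 to 98.3 and 90.9 to 98.6. Fgf18, which belongs to the same subfamily as Fgf8 and Fgf17, was called in all lists at 74.7, 87.0, 39.3 and 63.1. The 3 genes of that subfamily were thus called in 1, 0 and 4 lists (Fgf8, Fgf17 and Fgf18).

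The receiving side of the pathway was called throughout. All 13 of the FGF receptor and response genes that could be matched had a start summit in every list, against 57.5% of protein-coding genes. Among them were Dusp6, an ERK phosphatase induced by FGF (67.6, 85.9, 88.6 and 86.5), Spry4, a feedback inhibitor (68.4, 92.3, 71.0 and 75.6), and the transcription factor gene Etv4 (64.7, 81.3, 84.0 and 83.2). Fgfr2, whose epithelial isoform receives Fgf10, had percentiles of 73.2, 86.4, 84.0 and 87.1. Fgfr4 had 4.89, 65.3, 31.7 and 50.7, and Fgfr3 had 72.4, 50.3, 70.4 and 40.2. At equal list length 11 of the 13 were called in all 4 lists, against 54.8% of protein-coding genes, and Fgfr3 and Fgfr4 in 3 lists each. The annotated starts per gene ranged from 1 (as for Dusp6) to 15 (Fgfr2). The part of base composition or of the number of starts in these calls was not tested.

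Of 16 ridge regulators, 8 were called in every list (50%, against 57.5% of protein-coding genes) and 2, Sp6 and Wnt10a, in none (34.5% of protein-coding genes). Sp9 and Dlx6, transcription factor genes of the ridge, were called in all lists at 77.5, 87.3, 76.8 and 59.4 and at 73.1, 87.2, 59.3 and 77.1. Their relatives Sp8 (26.8, 51.5 and 39.2) and Dlx5 (40.1, 70.2 and 27.8) were called in 3 lists and missed in wild-type replicate 1. Wnt3, an ectodermal ligand upstream of Fgf8, was called in wild-type replicate 2 alone at the 4.77 percentile. En1, the gene at the centre of the study, was called in stop cassette replicate 2 alone at the 52.7 percentile.

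Markers of surface epithelium were read beside the member calls, and their part in those calls was not tested. Of 14 markers, 5, 9, 6 and 7 were called in stop cassette replicates 1 and 2 and wild-type replicates 1 and 2, and 5 in all 4 lists. Among these were Krt18, the cell adhesion genes Cdh1 and Epcam, and Perp, a target of p63, at percentiles of 78.7, 85.4, 71.3 and 70.1 for Perp. The keratin genes Krt5 and Krt14, which mark stratified epithelium and are targets of p63, were called in none, nor were Grhl3 and Cldn6. The limb mesenchyme list had 12, 11, 9 and 12 of 13 genes called, and Tbx5, a defining forelimb gene, was called in none. Among markers of other cell types, 6, 6, 6 and 5 of 7 blood genes, 2, 4, 2 and 2 of 8 endothelial genes and 4, 6, 3 and 3 of 8 muscle precursor genes were called. Liver genes, as a control, had 1, 2, 2 and 0 of 10 called. The shares of all protein-coding genes in the same lists were 61.6%, 64.5%, 59.1% and 61.6%. The epithelial shares (35.7%, 64.3%, 42.9% and 50%) were below that background in stop cassette replicate 1 and both wild-type lists. In stop cassette replicate 2 the epithelial share was level with it (64.3% against 64.5%). The endothelial and liver shares were below the background in every list. The muscle shares (50%, 75%, 37.5% and 37.5%) were below it except in stop cassette replicate 2. Stop cassette replicate 2, the longest list and the one with the Fgf8 and Trp63 start summits, had the most epithelial, endothelial and muscle genes called, tied for the most blood and liver genes, and had fewer mesenchyme genes than 2 other lists.

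**Figure D4:**
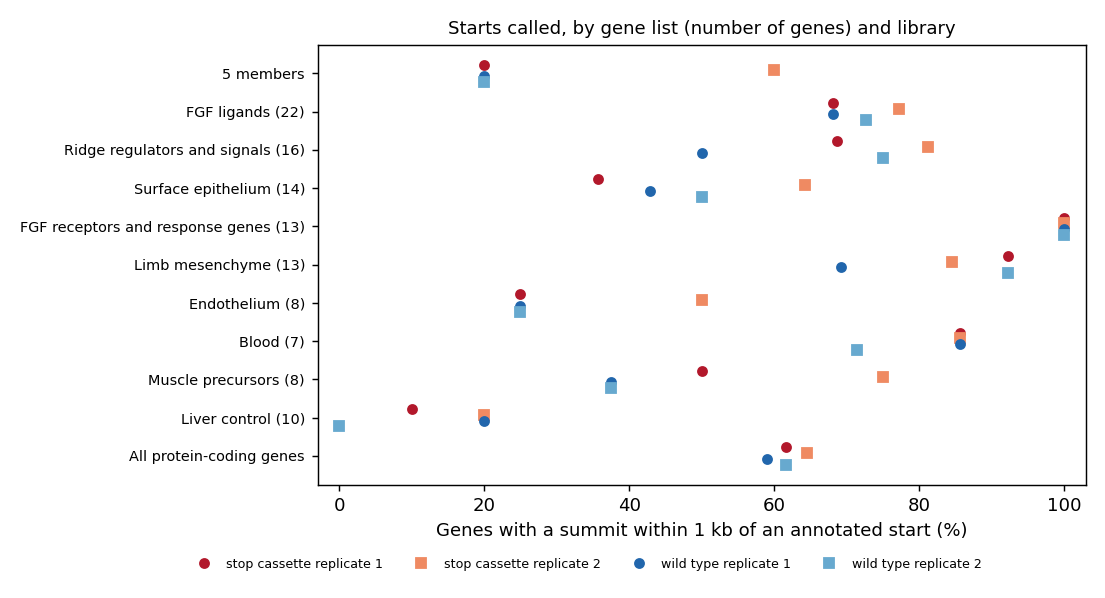
Share of genes (%) with a summit within 1 kb of an annotated start, by gene list (number of genes in parentheses) and library. The 5 members lie at 1 of 5 genes in 3 libraries and 3 of 5 in stop cassette replicate 2, while FGF receptors and response genes lie at 100% in all 4.

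The start percentile over the 4 lists, with no summit counted as 0, was used to find the most similar genes among 54 others of the ligand, ridge, epithelial and p53-family lists. For Fgf9 these were Fgf14 (mean absolute difference 9.44) and Msx2 (12.5), a homeobox gene of ridge and mesenchyme. For Trp63 the nearest was the epithelial factor gene Ovol1, at 0, because both had a single summit of equal score in stop cassette replicate 2, followed by Fgf8 at 2.59. Ovol1 and Trp63 were equally near to Fgf8. Fgf4 and Fgf17 had no summit to compare and shared this with 11 of the 54 genes. Of the p53 family, Trp53 was called in all lists (80.2, 80.4, 34.6 and 84.0) and Trp73 in none.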

How the data were processed

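One peak list per library was deposited for 4 limb libraries. Per the submitters' processing notes, Bowtie2 2.2.6 and Picard were used and the build was mm9. In the deposited lists the name of each peak carries tags for removed duplicates, removed mitochondrial reads and a mapping quality of 30. The peak caller, any Tn5 shift and any control are not given in the sources used here. The deposited score behaves as −log10 of a q-value, since its lowest value in each list (1.302 to 1.307) matches a q-value of 0.05. The lists hold 1-bp summits without read counts, so no test on reads was possible.

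Percentiles rank the score within a list, with ties weighted 0.5. Starts, gene bodies and sequence came from GENCODE M1 and its genome of the same build, where 0 summits lay beyond a chromosome end. Summits extended by 250 bp on each side were merged into regions. Genotypes were compared with exact two-sided permutation tests over libraries. The genes, lists and tests were chosen with earlier results of these data known. Named regions were those at member starts, the 3 highest-ranked shared regions away from starts per gene, and genotype-specific ones, and further regions, the Fgf4 start and ΔN Trp63 start sequences, the Trp63 intron and the CpG comparison were added after their values were seen. Flrt3, Fgfr1, Tfap2a and Spi1 had no unique entry and were not analysed here. One promoter sequence and one epithelial gene are not reported here. On simulated lists, 200 of 200 planted starts were recovered among 22350 genes and 200 of 200 planted regions per genotype. The planted summits lay within the distances used for calling and merging, so this checks the code and not the behaviour of the real lists. Python 3.11.15 was used. Alternatives were equal list length, a score of at least 5, other distances, windows, extensions and starts, omission of each library, and pairing by replicate number.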

Additional observations from a re-analysis of the deposited data

How the results depend on the processing

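At equal list length, the members with a called start fell to 0 in stop cassette replicate 1, to 1 in replicate 2 and to 0 in all lists together, and the Fgf9 difference in summits was 0. The mean percentile difference of shared Fgf9 regions was -2.40 at equal length and -1.72 with a window of 50 kb. A score of at least 5 left 0 members called in stop cassette replicate 1, 1 in replicate 2, 0 in wild-type replicate 1 and 0 in all lists together, 7 FGF ligands and 3 epithelial genes in all 4 lists. The difference in the share of the list was -0.00348 percentage points with windows of 50 kb and -0.00304 with 200 kb. Within 50 kb, 3 regions were specific to the stop cassette and 0 to wild type. With an extension of 100 bp, and with summits at most 250 bp apart, 2 were specific to wild type. Within 500 bp of a start, the Fgf9 start percentile difference was 0.386. The cause was not tested.

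Omitting 1 library at a time, stop cassette-specific regions ranged from 14 to 23 and wild type-specific ones from 1 to 7. The share difference ranged from -0.00665 to 0.00868 percentage points, the Fgf9 region difference from -15.6 to 17.1, that of Fgf4 from 4.27 to 24.0, of Fgf8 from 11.7 to 19.6 and of Fgf17 from 19.1 to 26.8, and the Fgf9 start difference from -26.4 to 15.8. Summit differences ranged from 8.5 to 14.5 for Fgf4, 4 to 12 for Fgf8, 0.5 to 4.5 for Fgf9, 5 to 8 for Fgf17 and 2 to 5 for Trp63. Replicate numbers name libraries and do not pair them by any label. With a replicate block the mean difference for Fgf8 summits stayed 8 (exact permutation p = 0.5, the smallest with 2 pairs). Neither design could pass a threshold of 0.05, so the p-values say nothing about stability. Over 23864 shared regions, the difference between replicates 1 and 2 correlated between genotypes at 0.181. Of 189 recomputed values, 11 differences reversed, 1 fell to no difference, and 16 counts changed by more than 1.5 times or reached 0. The other 161 were differences that kept their sign or counts that stayed within 1.5 times, and the replicate spread was not considered. These 161 include large changes in size, such as the Fgf8 summit difference of 2 and the Fgf8 region percentile difference of 2.12, both at equal length. Unknown read depth limits all of them.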
